A study of Mus musculus with 120 samples.

Results

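Regulators of otic and cranial mesenchyme, the loose connective tissue around the embryonic inner ear and brain, were followed across single cells of the mouse endolymphatic sac. The 10 genes listed were Prrx1, Prrx2, Pdgfra, Foxc1, Foxc2, Twist1, Twist2, Tbx15, Tbx18 and Pou3f4. They were chosen by name, and 9 of them had an entry among the 48371 gene symbols of the expression table, while Foxc2 was not analysed here. Cells came from endolymphatic sacs of E14.5 mouse embryos, 62 from heterozygotes for the Sox9Y440X allele (Sox9Y440X/+) and 58 from wild-type embryos (WT). The name of the allele denotes a premature stop in SOX9, a transcription factor of cartilage and of the otic epithelium. Single cells were sequenced with the Smart-seq2 protocol, which reads whole transcripts, and the values are FPKM, which divide the fragments of a gene by its length and by the mapped fragments of the cell. The labels name no animal, litter or plate, so each genotype counts as 1 sample, and the values below have no replicate error and no test.

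The inner ear epithelium is wrapped in periotic mesenchyme, which comes from cranial mesoderm and neural crest and later forms the cartilage capsule and the fibrocytes of the ear. Twist and Prrx genes encode transcription factors that act in such undifferentiated mesenchyme, as basic helix-loop-helix and paired-type homeodomain proteins. Foxc1 encodes a forkhead factor of cranial mesenchyme and meninges, Tbx15 and Tbx18 encode T-box factors, and Pou3f4 encodes a POU factor of the periotic mesenchyme whose loss causes deafness. Pdgfra encodes the PDGF receptor alpha, a tyrosine kinase at the surface of many mesenchymal cells.

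Promoter windows of 8 of the 9 genes were found in the RefSeq table for GRCm38.p6, and Tbx15 is named without one. The bases before the annotated starts are printed for Prrx1 and Pdgfra because these were the most widely detected of the 9 genes in connective tissue cells. The Prrx1 stretch is the minus strand of chr1:163313711-163313900, and its capitals mark TAATTA, a homeodomain core, 173 bases before the RefSeq start. The Pdgfra stretch is the plus strand of chr5:75152001-75152250, and its capitals mark an E-box, the motif of basic helix-loop-helix factors (CANNTG), 182 bases before the RefSeq start. For both genes this start differs from the GENCODE one behind the gene positions given further on, and the Prrx1 stretch ends short of the RefSeq start, at the GENCODE one.
Prrx1: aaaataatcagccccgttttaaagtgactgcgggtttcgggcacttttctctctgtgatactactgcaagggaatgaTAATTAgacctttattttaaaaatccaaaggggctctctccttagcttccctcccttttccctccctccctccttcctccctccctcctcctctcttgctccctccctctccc
Pdgfra: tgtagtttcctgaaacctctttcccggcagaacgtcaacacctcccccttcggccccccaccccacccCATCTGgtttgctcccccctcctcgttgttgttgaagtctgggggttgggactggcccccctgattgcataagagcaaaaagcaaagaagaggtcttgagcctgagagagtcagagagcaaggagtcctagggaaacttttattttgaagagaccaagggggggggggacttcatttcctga
Motifs were searched on both strands in windows of 300 bases that run from 250 before to 50 after the RefSeq start. TAATTA stood in 1 of the 8 windows, that of Prrx1, against 5.31% of 27025 RefSeq windows. CANNTG stood in 2 of the 8, those of Pdgfra and Tbx18, against 72.1% of all windows. The forkhead motif TGTTTAC (3.55% of all windows) and the T-box motif AGGTGTGA (1.27%) stood in 0 of the 8.

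Detection was set at 1 FPKM or more, and 115 cells with at least 1000 genes were kept, 58 Sox9Y440X/+ and 57 WT. Connective tissue cells were those without Epcam, an epithelial adhesion gene, and with collagen Col1a2 or Col3a1. They numbered 19 in Sox9Y440X/+ and 1 in WT, and all 20 held both collagens. Epithelial cells, those with Epcam, numbered 38 in Sox9Y440X/+ and 55 in WT, and 1 cell of each genotype was in neither class. The median number of genes per cell was 3593 in Sox9Y440X/+ connective tissue cells (1406 to 6459), 4513 in Sox9Y440X/+ epithelial cells (1959 to 6323) and 3270 in WT epithelial cells (1209 to 6331). The class names were checked against 15 mesenchyme and 15 epithelium markers that took no part in them. Sox9Y440X/+ connective tissue cells held a median of 10 mesenchyme markers (4 to 14) and 0 epithelium markers (highest 2), against medians of 3 and 11.5 in Sox9Y440X/+ epithelial cells. Muscle, melanocyte and neuron markers were below 1 FPKM in all 20 connective tissue cells, no connective tissue cell held more than 2 of 10 endothelium markers, and 3 of the 19 held 3 of 7 pericyte markers. Of these, cell 20 held 0 of the 9 regulators and cells 25 and 45 held 5 each. At least 3 of 10 chondrocyte markers were held by 9 of the 19 Sox9Y440X/+ connective tissue cells, against 7 of 38 Sox9Y440X/+ epithelial cells, and their part in the results below was not tested.

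Sox9Y440X/+ cell 40 stands apart from its class. It had 82.2 FPKM of Epcam, and so counts as epithelial, but also 172 FPKM of Col1a2 and 148 FPKM of Col3a1. It held 0 of the 15 epithelium markers and 3 of the 15 mesenchyme markers, fewer than any connective tissue cell (at least 4). It also held 4 of 10 chondrocyte markers, so the markers do not settle its type. It held Prrx1 at 187 FPKM and Tbx15 at 5.47 FPKM, so those genes are given with and without it.

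The main question was which regulators were present in the connective tissue cells and absent from the epithelial cells. In Sox9Y440X/+ cells 6 of the 9 genes had a higher mean log2(FPKM + 1) in connective tissue cells by at least 1 log2 unit, namely Prrx1, Pdgfra, Prrx2, Foxc1, Twist1 and Twist2. Of all 12457 genes detected in at least 5 cells, 7.54% were higher by that much, while 1811 of them were lower by it. The median difference over the 9 genes was 1.12, against -0.16 over all genes tested. With a pseudocount of 10 in place of 1, Prrx1 remained past 1 log2 unit, at 1.59, and the other 5 did not. Present was taken as detected in at least 25% of connective tissue cells and absent as detected in at most 5% of epithelial cells. The first limit was met by 6 of the 9 genes, against 10.4% of all 48371 symbols, and the second by 8 of the 9, against 74.4% of all symbols, so that absence alone was common. Both were met by 5 of the 9, Pdgfra, Prrx2, Foxc1, Twist1 and Twist2, against 1.72% of the 12457 genes tested, a smaller set than the 48371 symbols. Pdgfra, Foxc1, Twist1 and Twist2 were detected in connective tissue cells only. Prrx2 was also detected in 1 of 55 WT epithelial cells, and Prrx1 in 3 of 38 Sox9Y440X/+ and 1 of 55 WT epithelial cells. All 6 genes therefore reached the filter of 5 cells only through the connective tissue cells. The shares over the genes tested are thus given for reference, and no support is drawn from them. Prrx1 met the first limit and not the second, and Tbx15, Tbx18 and Pou3f4 met the second and not the first. Tbx15, Tbx18 and Pou3f4 were also detected in fewer than 5 cells and are not among the genes tested.

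**Figure D1:**
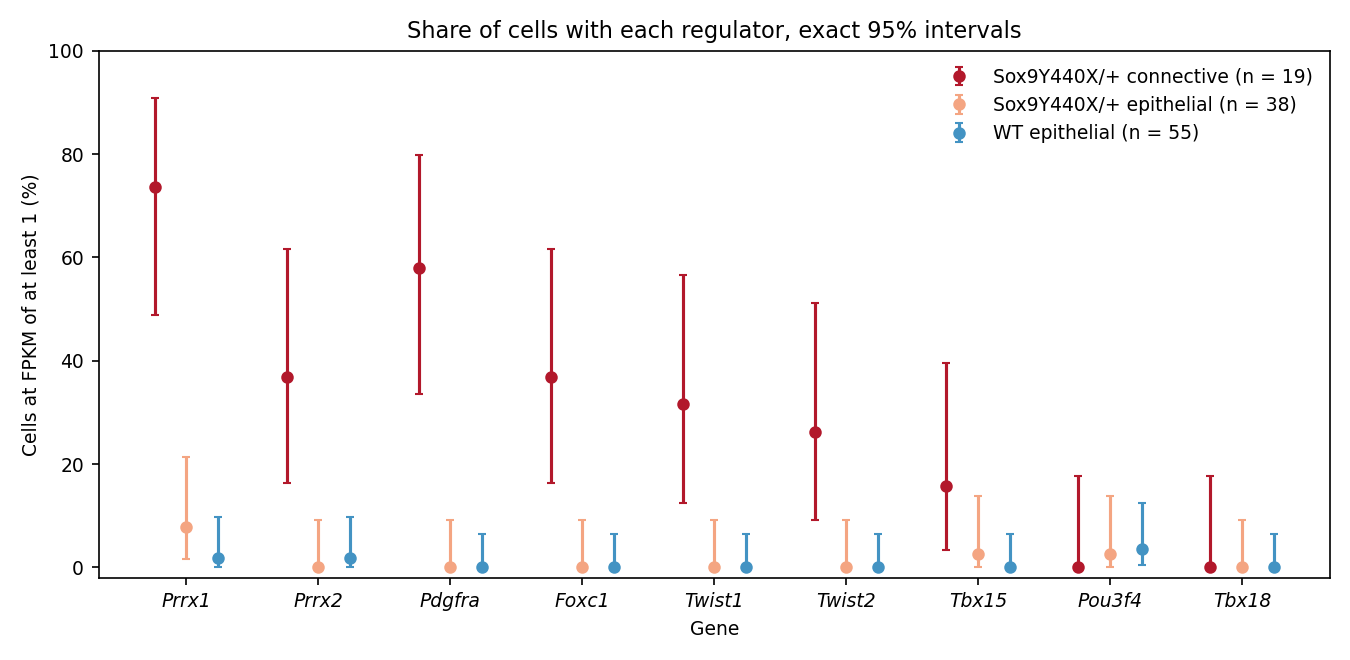
Share of cells (vertical axis, percent) in which each of the 9 regulators (horizontal axis) reached 1 FPKM, for 19 Sox9Y440X/+ connective tissue cells, 38 Sox9Y440X/+ epithelial cells and 55 WT epithelial cells, with exact 95% intervals that cover counting error only. Prrx1 stands at 73.7% of the connective tissue cells, and no regulator passes 7.89% of either set of epithelial cells.

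The paired-type homeobox genes led the order of levels by mean FPKM. By mean log2(FPKM + 1) in Sox9Y440X/+ connective tissue cells, Pdgfra, at 2.15, stood above Prrx2, at 2.06. Prrx1 was detected in 14 of 19 Sox9Y440X/+ connective tissue cells (73.7%, exact 95% interval 48.8% to 90.9%), with a lowest value of 0, a median of 27.3 and a highest value of 143 FPKM. It was detected in 3 of 38 Sox9Y440X/+ epithelial cells (7.89%, 1.66% to 21.4%) and in 1 of 55 WT epithelial cells, at 12.9 FPKM. The 3 Sox9Y440X/+ epithelial cells were cell 40, which held 92.6% of the summed Prrx1 of its class, and 2 cells at 8.82 and 6.04 FPKM. The ranges of the classes overlapped, since 5 connective tissue cells lay below 1 FPKM and cell 40 lay above all 19. Its mean log2(FPKM + 1) was 3.88 in connective tissue cells and 0.37 in epithelial cells (SD over cells 2.69 and 1.38). The difference of 3.51 ranked 59 of the 12457 genes tested, a rank given for reference only, since Prrx1 passed the filter through the connective tissue cells. Without cell 40 it was 3.71, and Prrx1 was detected in 2 of 37 epithelial cells (5.41%), still above the limit for absence.

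Prrx2, the paralogue of Prrx1, was seen in fewer cells. It was detected in 7 of 19 Sox9Y440X/+ connective tissue cells (36.8%, 16.3% to 61.6%), with a median of 0 and a highest value of 169 FPKM, and in 0 of 38 Sox9Y440X/+ epithelial cells. A count of 0 in 38 cells, taken as at most 3 cells, allows a share of up to 7.89% of cells at 1 FPKM, and the exact interval drawn for it reaches 9.25%. In WT epithelial cells it was detected in 1 of 55, at 14.8 FPKM. The 7 connective tissue cells lay at 13.2 FPKM or more, and the other 12 were listed at 0. Its difference between Sox9Y440X/+ connective tissue and epithelial cells was 2.06. The WT connective tissue cell held both paralogues, Prrx1 at 79.6 FPKM and Prrx2 at 78.5 FPKM, each within the range of the Sox9Y440X/+ cells.

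Pdgfra, which binds PDGF ligands and signals through several adaptor proteins, was detected in 11 of 19 Sox9Y440X/+ connective tissue cells (57.9%, 33.5% to 79.7%) and in 0 of 38 Sox9Y440X/+ epithelial cells. Its values in the connective tissue cells ran from 0 through a median of 2.09 to 107 FPKM, and the lowest detected value, in cell 24, stood at the detection limit. The WT connective tissue cell had 14.9 FPKM, and the highest of 55 WT epithelial cells 0.292 FPKM. The difference within Sox9Y440X/+ was 2.15. Pdgfra was thus the gene of the 9 with both a share above 50% in connective tissue cells and no detection in either set of epithelial cells.

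Other genes of PDGF signalling were read in the same cells. Of 16 PDGF ligands, receptors and signalling genes, 3 were higher in Sox9Y440X/+ connective tissue cells by at least 1 log2 unit and 2 lower. Of all genes tested 7.54% were higher and 1811 of the 12457 lower. The median difference of the list was -0.24, over all 16, of which 14 were among the genes tested. Pdgfrb, the second PDGF receptor gene and also a pericyte marker, was detected in 10 of 19 connective tissue cells and 1 of 38 epithelial cells, a difference of 2.43. Shc1, an adaptor of receptor tyrosine kinases, differed by 2.03, and Spry1, a feedback inhibitor of such receptors, by 1.28. Stat3, a transcription factor of cytokine and growth factor signalling, was on the epithelial side at -2.19, detected in 5 of 19 connective tissue cells and 27 of 38 epithelial cells. The other lower gene was Pdgfrl, which encodes a receptor-like protein, at -1.09, and the ligand gene Pdgfa differed by -0.98.

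Foxc1 was detected in 7 of 19 Sox9Y440X/+ connective tissue cells (36.8%, 16.3% to 61.6%) and in 0 of 38 Sox9Y440X/+ and 0 of 55 WT epithelial cells. Its highest value was 28.8 FPKM and its median 0, and the WT connective tissue cell was listed at 0. The difference within Sox9Y440X/+ was 1.62. All 7 cells with Foxc1 also held Prrx1, which was detected in 14 of the 19 cells.

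The Twist genes were the least widely detected of the 6. Twist1 was detected in 6 of 19 Sox9Y440X/+ connective tissue cells (31.6%, 12.6% to 56.6%), at 42.5, 19.3, 10.8, 7.10, 4.82 and 1.17 FPKM. Twist2 was detected in 5 of 19 (26.3%, 9.15% to 51.2%), at 55.7, 38.2, 15.3, 13.6 and 1.01 FPKM. Neither reached 1 FPKM in an epithelial cell of either genotype or in the WT connective tissue cell. Twist1 differed by 1.12 between Sox9Y440X/+ connective tissue and epithelial cells and Twist2 by 1.05, both close to the limit of 1. Without the cell with its highest value, Twist1 differed by 0.88 and Twist2 by 0.79, so that each call rested on 1 cell. With detection at 5 or 10 FPKM neither gene met the limit for presence.

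Twist proteins bind DNA as pairs with E proteins, and Id proteins take E proteins away from them. Of 9 E-protein, Id and Hand genes, 3 were higher in Sox9Y440X/+ connective tissue cells by at least 1 log2 unit and 1 lower, where 7.54% of all genes tested were higher and 1811 of the 12457 lower. The median of the list was 0.62, over all 9, of which 7 were among the genes tested. Id3 was detected in 19 of 19 connective tissue cells and 23 of 38 epithelial cells, a difference of 4.76. The E-protein genes Tcf12 and Tcf3 differed by 1.96 and 1.28. Id4 differed by -2.14, with detection in 2 of 19 connective tissue cells and 19 of 38 epithelial cells. The other E-protein gene, Tcf4, differed by 0.50. All 3 E-protein genes were also detected in epithelial cells, Tcf12 in 13, Tcf3 in 18 and Tcf4 in 21 of 38, whereas the Twist genes were detected in 0.

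The remaining 3 regulators were seen rarely or not at all. Tbx15, a T-box gene of skeletal and dermal mesenchyme, was detected in 3 of 19 Sox9Y440X/+ connective tissue cells, at 45.7, 7.29 and 2.46 FPKM, and in 1 of 38 epithelial cells, which was cell 40. Its difference was 0.48, or 0.55 without cell 40 and 0.20 without the cell with the highest value. Tbx18, which in the mouse acts in otic fibrocytes, was listed at 0 in every cell. A count of 0 in the 19 connective tissue cells, taken in the same way, allows a share of up to 15.8% of cells at 1 FPKM, and the exact interval reaches 17.6%. Since a value of 0 can be a failed estimate, neither bounds the share of cells that express the gene.

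Pou3f4 did not follow the other regulators. It reached at most 0.380 FPKM in the 19 Sox9Y440X/+ connective tissue cells, and 21.2 FPKM in the WT connective tissue cell. It was also detected in epithelial cells, 1 of 38 in Sox9Y440X/+ at 10.6 FPKM and 2 of 55 in WT at 10.8 and 7.76 FPKM. Its difference within Sox9Y440X/+ was -0.07, and 0.02 without the cell with the highest value. The WT connective tissue cell also held 6 of 10 chondrocyte markers, where no Sox9Y440X/+ connective tissue cell held more than 4; the part of this in its Pou3f4 value was not tested.

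By mean FPKM over the 19 Sox9Y440X/+ connective tissue cells the order was Prrx1 at 41.5, Prrx2 at 24.6, Pdgfra at 14.2, Foxc1 at 7.36, Twist2 at 6.52, Twist1 at 4.58, Tbx15 at 2.92 and Pou3f4 at 0.0200, with Tbx18 at 0. FPKM is per transcript length, so levels of different genes can be set side by side. The SD over cells was 46.7 FPKM for Prrx1 and 47.8 FPKM for Prrx2, and each neighbour in the order differed by less than the SD over cells of the higher one, Pou3f4 and Tbx18 included.

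**Figure D2:**
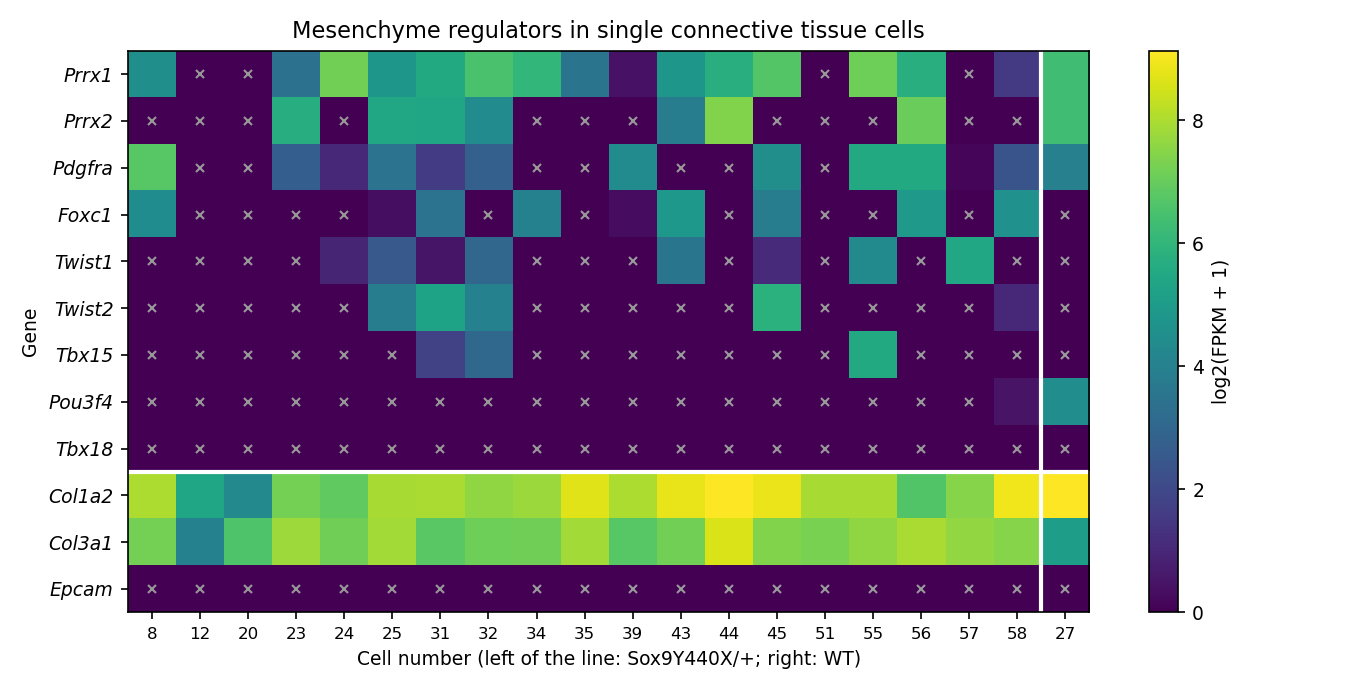
Colour gives log2(FPKM + 1) of the 9 regulators (rows), with the class genes Col1a2, Col3a1 and Epcam below the white line, in each connective tissue cell (columns by cell number, 19 Sox9Y440X/+ cells left of the line and the WT cell right of it). A cross marks a value listed at 0. Sox9Y440X/+ cells 12, 20 and 51 hold no regulator at 1 FPKM, while cells 31 and 32 hold 6.

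The regulators did not form 1 fixed set within the connective tissue cells. Of the 19 Sox9Y440X/+ cells, 16 held at least 1 regulator (84.2%, 60.4% to 96.6%), against 4 of 38 Sox9Y440X/+ epithelial cells (10.5%, 2.94% to 24.8%), while 3 of 55 WT epithelial cells held one (5.45%, 1.14% to 15.1%). No regulator was detected in 3 of the 19 cells, 1 in 3 cells, 2 in 3 cells, 3 in 2 cells, 4 in 4 cells, 5 in 2 cells and 6 in 2 cells. The 3 cells without one, cells 12, 20 and 51, held 6, 4 and 7 mesenchyme markers and 1406, 3247 and 2330 genes. The WT connective tissue cell held 4.

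Within pairs of paralogues, all cells with Prrx2 also held Prrx1, while the Twist genes were detected both together and apart. Of the 20 connective tissue cells of both genotypes, 8 held Prrx1 and Prrx2, 7 held Prrx1 without Prrx2, and 0 held Prrx2 without Prrx1. For the Twist genes, 3 cells held both, 3 held Twist1 alone and 2 held Twist2 alone. Tbx15 was detected in 3 cells, all without Tbx18. Across families, the 5 cells with Twist2 held Prrx1 and Pdgfra as well, and Prrx1 was found in 11 of the 12 cells with Pdgfra. Prrx1 was detected in 15 of the 20 cells and Pdgfra in 12, so much overlap with them follows from these shares alone. Overlap beyond such shares was not tested for any pair. Sox9Y440X/+ cell 57 had the highest Twist1 value and none of the other regulators at 1 FPKM.

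The number of regulators moved with the number of genes in the cell. Over the 19 Sox9Y440X/+ connective tissue cells, which come from 1 sample, Pearson's r between genes per cell and regulators detected was 0.75 and Spearman's rho 0.73. For single genes r was 0.74 for Twist2, 0.49 for Pdgfra, 0.42 for Prrx1 and 0.16 for Twist1. Among epithelial cells of both genotypes, the 7 cells with a regulator had 5555 to 6236 genes, and 15 of the 93 epithelial cells had at least 5555. A band of 2500 to 5500 genes leaves out all 7, so differences within it are no check on gene number for the genes these cells held. Twist1 and Twist2, at under 1 FPKM in all epithelial cells, differed by 1.14 and 0.87 within that band, so that Twist2 fell short of the limit. The part of gene number in the other results was not tested.

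**Figure D3:**
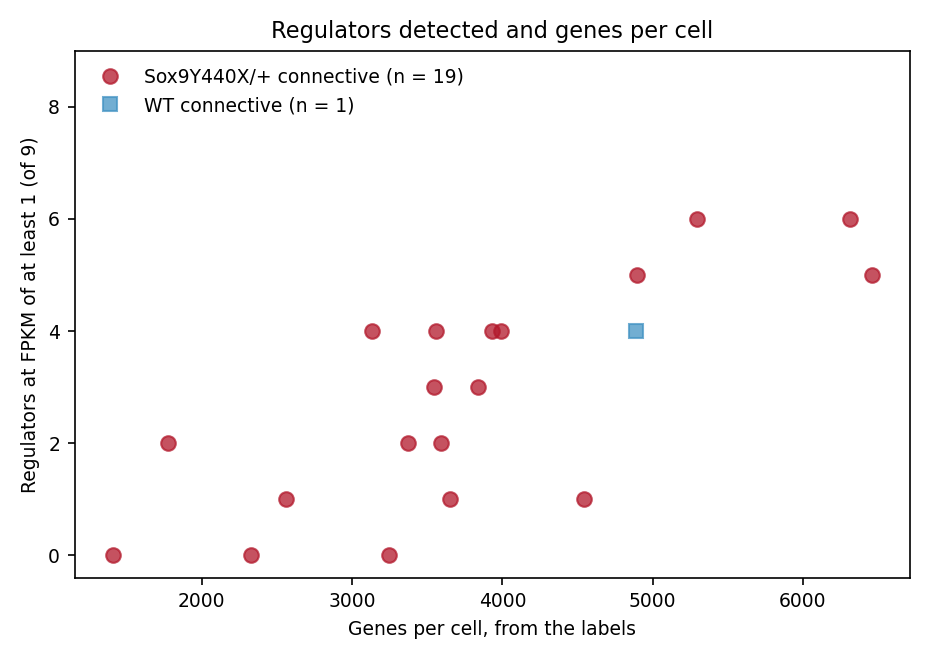
Number of the 9 regulators at 1 FPKM or more (vertical axis) against the number of genes in the cell, from the labels (horizontal axis), with 1 point per connective tissue cell, circles for Sox9Y440X/+ (n = 19) and a square for WT (n = 1). Cells with 6 regulators have 5298 and 6317 genes, while the cell with the fewest genes, 1406, has 0 regulators.

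The genotypes could be compared within epithelial cells. Of the 9 genes, 0 differed by at least 1 log2 unit between Sox9Y440X/+ and WT epithelial cells, where 6.37% of all genes were higher and 1.2% lower. No test gave this count, since each genotype is 1 sample. The highest mean log2(FPKM + 1) of the 9 was 0.37 in Sox9Y440X/+ epithelial cells, for Prrx1, and 0.12 in WT ones, for Pou3f4. With WT means so near 0, none of the 9 could be lower by 1 log2 unit in Sox9Y440X/+ epithelial cells. A higher mean was possible, and none of the 9 was higher by that much. The count therefore does not bear on a loss in Sox9Y440X/+ cells, and an effect of genotype was not tested. The largest difference was that of Prrx1, 0.30, which was 0.10 without cell 40. Prrx2 differed by -0.07, from the 1 WT cell that held it. The median over the 9 genes was 0, against 0.15 over all genes tested.

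Over all cells the genotypes held different shares of connective tissue, 19 of 58 Sox9Y440X/+ cells and 1 of 57 WT cells. In that comparison Prrx1 was higher by 1.33 in Sox9Y440X/+, the 1 regulator of 9 past 1 log2 unit, where 4.89% of all genes were higher and 2.71% lower. Pdgfra followed at 0.63, Foxc1 at 0.53, Prrx2 at 0.50, Twist1 at 0.38, Twist2 at 0.35 and Tbx15 at 0.23, while Pou3f4 stood at -0.13. The median of the 9 was 0.38, against 0.11 over all genes. Within the connective tissue class no genotype comparison was made, since WT gave 1 cell. Set against WT epithelial cells in place of Sox9Y440X/+ ones, the Sox9Y440X/+ connective tissue cells differed by 3.81 for Prrx1, 2.14 for Pdgfra and 1.99 for Prrx2, where 11.1% of all genes were higher by at least 1.

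Other transcription factors of cranial and periotic mesenchyme were detected in both classes. Of 60 listed, Foxf1 was not analysed here, and of the other 59, 9 were higher in Sox9Y440X/+ connective tissue cells by at least 1 log2 unit and 11 lower, where 7.54% of all genes tested were higher and 1811 of the 12457 lower. Only 36 of the 59 were among the genes tested, and the 9 include Osr1, at 1.28, which was not. The median of the list was 0, over all 59. Foxp2, a forkhead factor, was detected in 13 of 19 connective tissue cells and 4 of 38 epithelial cells, a difference of 3.97. Ebf1, a factor of several mesenchymal and blood lineages, was detected in 10 of 19 and 0 of 38, a difference of 2.84. Dlx5, a homeobox gene of the otic vesicle as well as of facial mesenchyme, had the largest difference of the list by size, -5.50, with detection in 1 of 19 connective tissue cells and 33 of 38 epithelial cells. Lmx1a, a LIM homeobox gene of the otic epithelium, differed by -3.64, with 0 of 19 and 31 of 38.

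Genes of meninges and perivascular mesenchyme were the last list set beside the regulators. Of 16, 6 were higher in Sox9Y440X/+ connective tissue cells by at least 1 log2 unit and 1 lower, where 7.54% of all genes tested were higher and 1811 of the 12457 lower. The median of the list was 0.41, over all 16, of which 9 were among the genes tested. Zic4, a zinc finger factor, differed by 4.16, with detection in 14 of 19 connective tissue cells and 1 of 38 epithelial cells. Bmp4, a growth factor gene of the BMP family, differed by 1.77, with detection in 6 of 19 connective tissue cells and 1 of 38 epithelial cells. Igf2, a growth factor gene, differed by 5.17, with detection in 18 of 19 and 5 of 38. Ptgds, prostaglandin D synthase, which meningeal cells also make, differed by -5.15, with detection in 0 of 19 connective tissue cells and 26 of 38 epithelial cells.

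**Figure D4:**
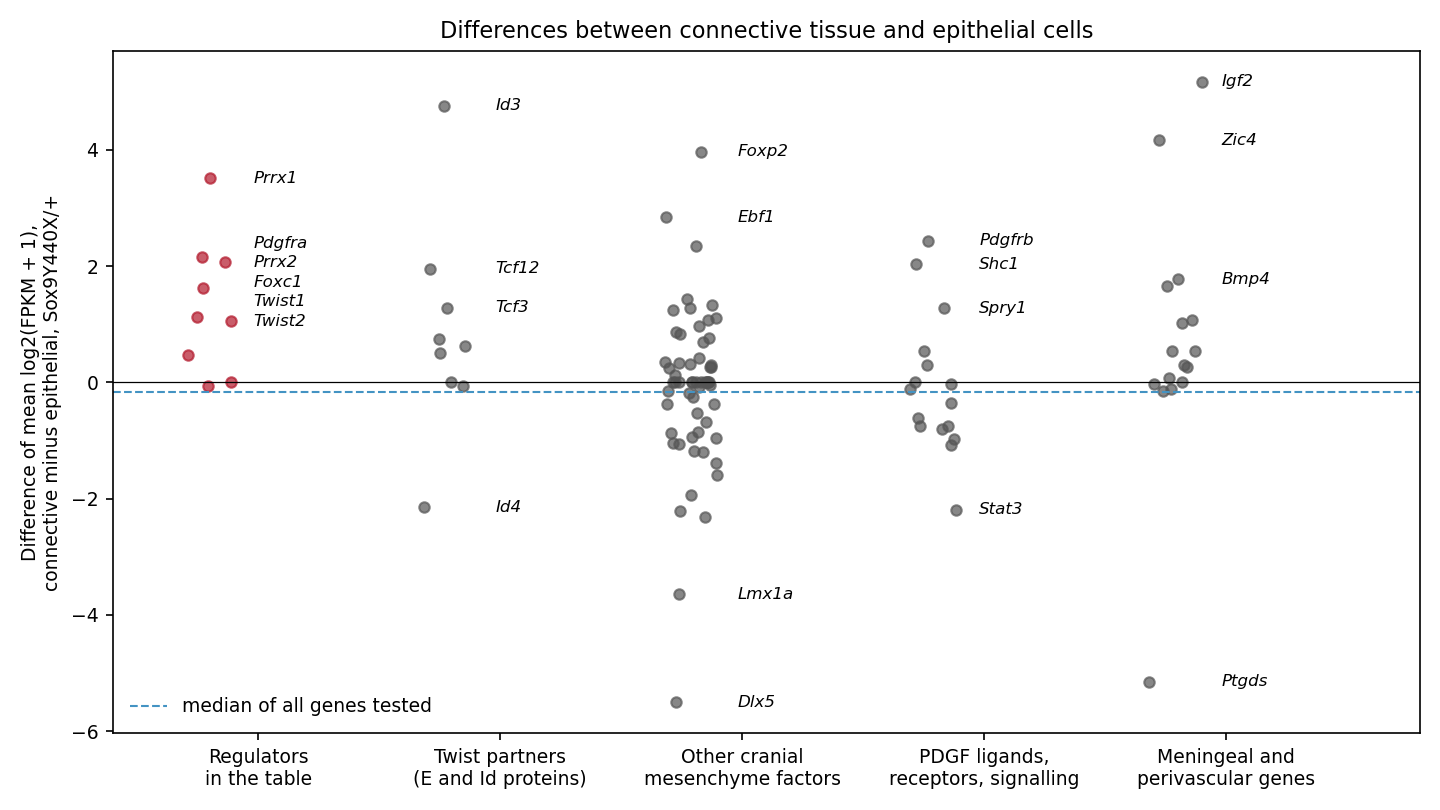
Difference of mean log2(FPKM + 1), Sox9Y440X/+ connective tissue cells minus Sox9Y440X/+ epithelial cells (vertical axis), with 1 point per gene, for the 9 regulators and 4 lists of related genes (horizontal axis, sideways spread for legibility). The dashed line is the median of all genes tested, -0.16. Regulators lie between -0.07 and 3.51, and Dlx5 (-5.50) and Ptgds (-5.15) lie lowest.

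For each regulator detected in at least 5 cells, the genes with the most similar levels were taken by Pearson's r of log2(FPKM + 1) over the 20 connective tissue cells, among 4567 genes detected in at least 5 of them. Values at 0 in most cells give such an r much weight on few cells. For Twist2 they were Hpcal1 at 0.94, Gmnn at 0.90 and Dcn at 0.87, and Dcn, the proteoglycan decorin, was detected in 6 cells, 5 of them with Twist2. For Twist1 they were Fkbp14 at 0.87, Tmem203 at 0.85 and Mien1 at 0.84. Between Twist1 and Twist2 themselves r was 0.15, with Twist1 detected in 6 and Twist2 in 5 of the 20 cells.

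For Prrx1 the closest were Set at 0.78, App at 0.74 and Snrpb2 at 0.73, of which Set was detected in 19 of the 20 cells. For Prrx2 they were Clptm1 at 0.90, Tm2d1 at 0.79 and Cdk9 at 0.78. Between Prrx1 and Prrx2 r was 0.42, the highest between any of the 6 regulators compared. Foxc1 was closest to Pkn2 at 0.78, Mcmbp at 0.75 and Haghl at 0.73. For Pdgfra they were Bax at 0.85, Tab2 at 0.80 and Scoc at 0.79.

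Positions are on GRCm38, the assembly also called mm10, from GENCODE M21. Twist1 lies on chromosome 12 (33957671 to 33959829, plus strand) and Twist2 on chromosome 1 (91801461 to 91848028, plus strand). Prrx1 also lies on chromosome 1 (163245119 to 163313710, minus strand), and Prrx2 on chromosome 2 (30834972 to 30881251, plus strand). Pdgfra lies on chromosome 5 (75152292 to 75198215, plus strand), Foxc1 on chromosome 13 (31806633 to 31812476, plus strand) and Tbx15 on chromosome 3 (99240381 to 99354259, plus strand). Tbx18 lies on chromosome 9 (87702800 to 87731260, minus strand) and Pou3f4 on chromosome X (110814280 to 110817207, plus strand). All 9 are annotated as protein coding. The antisense gene Gm29100 overlaps Twist2 and was detected in 4 of the 5 connective tissue cells with Twist2 and in none of the other 15. The same-strand noncoding gene Gm26523 overlaps Prrx1 and was detected in 4 of the 15 connective tissue cells with Prrx1 and in 1 without it. Pdgfra is overlapped by the antisense gene Gm42802, which was detected in 1 connective tissue cell. Since no source used here states that strand was counted, reads of such overlapping genes cannot be told apart.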

How the data were processed

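Single cells of the endolymphatic sac were measured by Smart-seq2, per the labels. The authors deposited 1 table of FPKM values, with 1 column per cell, and no value column was left over. Per the submitters' processing notes, HISAT2, SAMtools 0.1.18, Cufflinks and HTSeq were used with genome build mm10; their roles and settings, the annotation and any sort of the cells were not given in the sources used here. FPKM keeps no read counts, so the depth per cell is unknown, and an exact 0 can be a failed estimate (Gapdh was listed at 0 in 1 of the 19 Sox9Y440X/+ connective tissue cells). The lowest value above 0 was 7.98e-318, hence the detection limit of 1 FPKM.

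Entries with the same symbol were summed, which joined 184 of 48555 entries. GENCODE M21 held 99.3% of the identifiers. Cells with under 1000 genes per their label were left out (4 Sox9Y440X/+, 1 WT). No doublet caller was run; 4 kept cells, 2 Sox9Y440X/+ and 2 WT, all epithelial, held at least 5 markers of both mesenchyme and epithelium, and 2 of these held a regulator. With 1 sample per genotype, no test was run: differences of mean log2(FPKM + 1), with a pseudocount of 1, were computed with pandas 2.3.3, NumPy 2.4.6 and SciPy 1.17.1 under Python 3.11.15, and shares have exact Clopper-Pearson 95% intervals. Differences on this scale understate those of low genes. The limit that a count of 0 allows is 3 cells of the number of cells, and intervals and limits cover counting error only. The genes named were the regulators, the class genes, the 3 genes most correlated with each regulator and the 4 largest differences of each list; Pdgfa, Pdgfrl, Tcf4 and the list genes under the other observations were named after their values were seen. Of the genes first listed as meningeal, some are not reported here and enter no count. The regulators and lists were chosen with earlier results of these data known. The scripts were tested on simulated data.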

Additional observations from a re-analysis of the deposited data

How the results depend on the processing

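No regulator past 1 log2 unit changed direction under any setting tried. Prrx2, Pdgfra, Foxc1 and Twist2 were listed at 0 in all 38 Sox9Y440X/+ epithelial cells, so against these cells their differences could not turn negative. The count of 6 regulators higher in Sox9Y440X/+ connective tissue than epithelial cells became 1 with a pseudocount of 10, and 4 when each gene lost the cell with its highest value. The median difference of 1.12 became 2.29 with a pseudocount of 0.1, 0.41 with 10, and 2.75 as a log2 ratio of mean FPKM. The 5 regulators present and absent became 3 with detection at 5 FPKM, without Twist1 and Twist2, 4 with detection at 10 FPKM, again without them and with Prrx1, and 1 with presence in at least 50% of cells; Prrx1 joined them, giving 6, with classes by marker counts, with both genotypes together or with absence at 10% or less. Between epithelial cells, the count of 0 became 1, Prrx1, as a ratio of means. Over all cells, the count of 1 became 2 with a pseudocount of 0.1, 0 with 10, and 7 as a ratio of means. Without the filter on low values, 4.77%, 4.01% and 3.07% of genes were higher in the connective tissue, epithelial and all-cell comparisons. The cause of these changes was not tested. Leaving out Epcam-positive cells with both collagens was chosen after seeing the data and changed no count. Of 117 single-gene values for connective tissue against epithelial cells, 93 stayed within 1.5 times or 0.1 log2 units of the value reported. For the 6 regulators past 1 log2 unit, 61 of 78 did. Between epithelial cells 81 of 90 did, and over all cells 50 of 72. In the first comparison, all 120 cells, both collagens or a collagen limit of 5 FPKM gave the same 19 connective tissue and 38 epithelial cells. Values under these settings could not move, nor could those of Tbx18, at 0 in every cell. No paired analysis was possible because cell numbers pair no cells and each genotype is 1 sample. With 19 connective tissue cells in Sox9Y440X/+ and 1 in WT, no genotype difference within that class was detectable.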

Other observations

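The genes below, from the list of other cranial mesenchyme factors, were named after their values were seen and have no test; members of other families of the list, such as Foxp1 at -0.95 against Foxp2 at 3.97, lay on opposite sides. All 4 Dlx homeobox genes of the list were lower in Sox9Y440X/+ connective tissue cells by at least 1 log2 unit. Dlx1, Dlx2 and Dlx6 were detected in 0 of 19 connective tissue cells and in 10, 13 and 14 of 38 Sox9Y440X/+ epithelial cells. In WT epithelial cells Dlx1 was detected in 1 of 55, Dlx2 in 9 and Dlx6 in 8. Snai1 and Zeb2, repressors of epithelial genes, were detected in 8 and 7 of 19 connective tissue cells and in 0 of 38 Sox9Y440X/+ epithelial cells. In WT epithelial cells Snai1 was detected in 0 of 55 and Zeb2 in 1. Their relatives Snai2 and Zeb1 were each detected in 4 of 19 connective tissue cells, and in 1 and 0 of 38 Sox9Y440X/+ epithelial cells. Snai2 differed by 1.11 and Zeb1 by 0.76, short of the limit. Ebf2, a relative of Ebf1, was detected in 6 of 19 connective tissue cells and in 0 of 38 and 0 of 55 epithelial cells.

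Sox9Y440X/+ cell 10, without Epcam and without both collagens, held 10 of 10 endothelium markers and 0 of the 9 regulators. The WT cell in neither class, cell 20, held 9 of 15 epithelium markers and 0 regulators. None of the 5 cells left out for few genes held a regulator.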
